A study of Mus musculus with 16 samples.

Results

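The genes described here are 41 members of fatty acid uptake, storage and oxidation, found by their symbols among the 23220 gene symbols of the deposited tables. They were sorted into 10 roles: uptake (6 genes), activation (3), the carnitine shuttle (4), the malonyl-CoA brake (2), beta-oxidation (12), electron transfer flavoprotein (3), uncoupling and thioesterases (3), lipolysis (3), the lipid droplet coat (3) and triglyceride synthesis (2). The RNA sequenced came from myofibers, the long fused cells of muscle, taken from the extensor digitorum longus of the hindlimb, whose fibres are mostly fast. Mononucleated cells on the fibres had been stripped off first. The 16 libraries came from male C57BL/6 mice and formed 4 groups of 4: young controls and young runners at 4 months of age, and old controls and old runners at 22 months. Runners had free access to a running wheel for 5 weeks, and controls are labelled only as control. No genotype other than the strain is given, and separate animals behind the 4 libraries of a group are not stated, so each p-value measures only the spread between these libraries.

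Fibres take up fatty acids that lipoprotein lipase frees from lipoproteins at the capillary wall, bind them to coenzyme A and either store them as triglyceride in droplets or burn them in mitochondria. To be burned, long-chain fatty acids are passed through the inner mitochondrial membrane as carnitine esters, a step that malonyl-CoA blocks, and are then shortened by rounds of beta-oxidation whose electrons reach the respiratory chain in part through the electron transfer flavoprotein. In slow and oxidative fibres this pathway is the main source of energy in long, steady work, whereas fast glycolytic fibres rely more on glucose.

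Libraries held 30.7 to 67.4 M assigned reads (M, 1e6; median 46.9). The 11 markers of fast glycolytic fibres summed to 3454093 to 6870569 normalised reads per library (reads divided by a size factor for depth). The 10 measured of 11 markers of slow and oxidative fibres summed to 71064 to 165193, most of it the myoglobin gene Mb (63421 to 142718), while the slow troponin genes Tnnt1 and Tnni1 stayed at 199 or below. Libraries differed in how their values moved with the exon length of a gene. Spearman's rho between exon length and the deviation of a library from the mean of all libraries, a description over 8949 genes, ran from -0.37 in the old control Oc2 to 0.42 in the old runner O3ex. It was also negative in Yc4 (-0.34), Oc3 (-0.29), Y3ex (-0.18) and O1ex (-0.17), and slightly so in Oc4 (-0.02) and Yc8 (-0.01). The members' median exon length was 3879 bases against 4517 for those genes. Where removing the trend changed the call of a named member or moved its value by more than 1.5 times, that value stands beside the result.

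Exon length was taken as all bases in any annotated exon of a gene. It can exceed the length of the transcript in use, which lowers the reads per kb and the rank. Per kilobase of exon, the most abundant member was Fabp3, the cytosolic fatty acid carrier of muscle, with 17846 normalised reads per kb over all libraries. Etfa, the alpha subunit of the electron transfer flavoprotein (11093), the long-chain acyl-CoA dehydrogenase gene Acadl (8927), the thiolase gene Acaa2 (7949) and the thioesterase gene Acot13 (7857) came next. Among lipolysis genes Pnpla2, which encodes adipose triglyceride lipase, the enzyme of the first step, stood at 4678 reads per kb, and Lipe and Mgll, which act on diglyceride and monoglyceride, at 53.9 and 73.3. The fatty acid transporter gene Slc27a1 had 699 reads per kb and its relative Slc27a4 had 55.9. By total reads, Hadhb, the beta subunit of the trifunctional protein, was first with 7.66% of the members' reads. All 41 members together took 0.483% to 0.794% of the reads of a library.

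**Figure D1:**
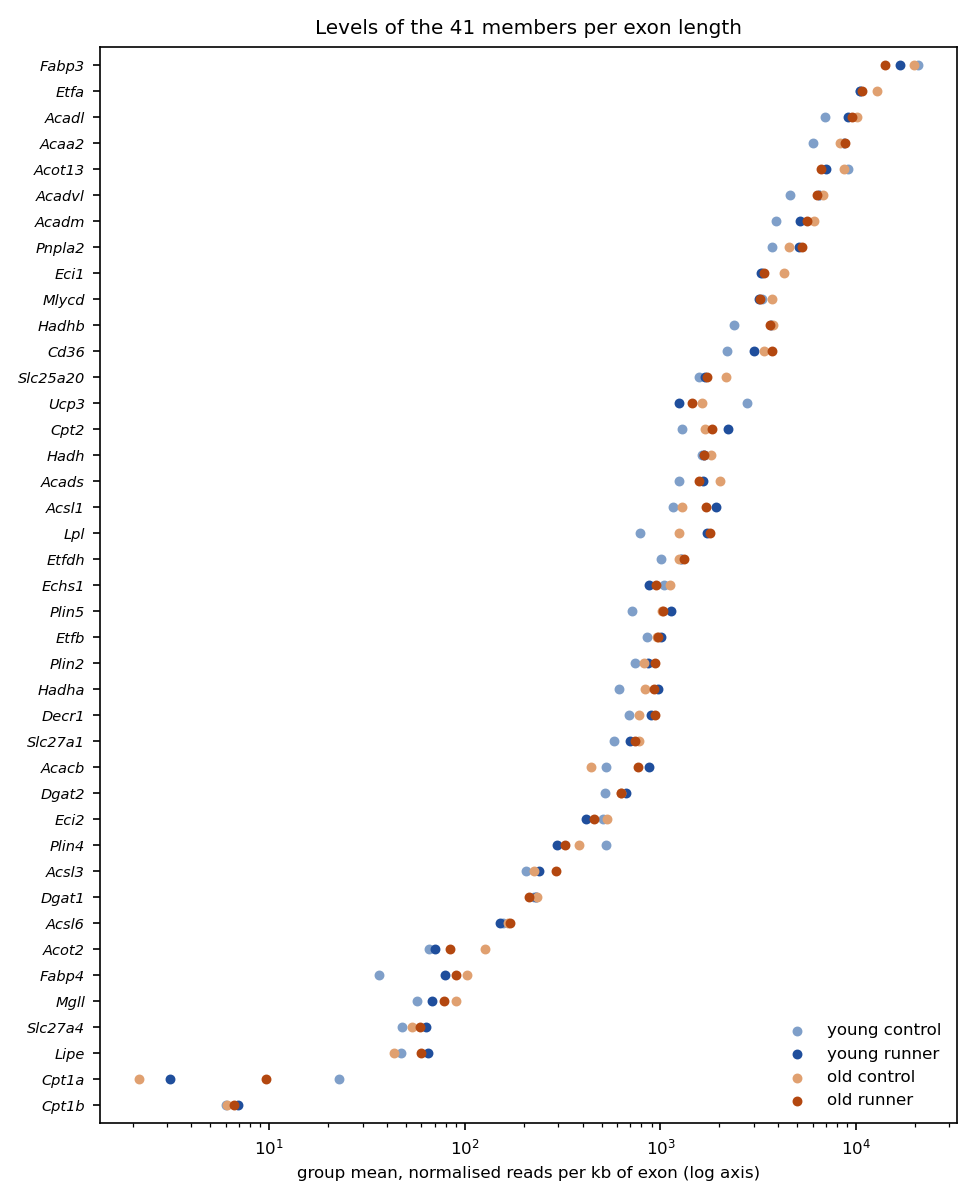
Mean level of each member in the 4 groups, as normalised reads per kilobase of exon on a log axis (n = 4 libraries per point), ordered by the mean over all 16 libraries. Fabp3 lies at the top with 17846 reads per kb, and Cpt1a and Cpt1b lie at the bottom with 9.41 and 6.42.

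The first question was which of these genes differed between runners and controls over both ages. Averaged over both ages, Lpl, Acsl1, Cpt2 and Hadha rose with running, each from a different role. Lpl (lipoprotein lipase) frees fatty acids from lipoproteins, and Acsl1 binds them to coenzyme A. Cpt2 turns carnitine esters back into acyl-CoA inside mitochondria, and Hadha is the alpha subunit of the trifunctional protein of beta-oxidation. Differences are runners minus controls in the deposited log2 values, a scale that shrinks changes of low genes, averaged over both ages and tested by limma with Benjamini-Hochberg adjustment over 9354 genes. Lpl rose by 0.85 (SE 0.18, adjusted p = 0.00938), Acsl1 by 0.56 (SE 0.14, adjusted p = 0.0184), Cpt2 by 0.43 (SE 0.12, adjusted p = 0.0343) and Hadha by 0.41 (SE 0.12, adjusted p = 0.0444). These were 4 of 39 members tested, all higher in runners, where 5.07% of all genes tested were called higher. None was called lower, as 4.85% of all genes were. The members' median difference was 0.15, against 0.04 over all genes tested. Of the 41, 27 were positive (65.9%), against 54.9% of all genes tested. In old mice alone the differences of the 4 were 0.55 (Lpl), 0.42 (Acsl1), 0.12 (Cpt2) and 0.16 (Hadha), and none passed. In young mice alone they were 1.16, 0.71, 0.75 and 0.65, and none passed either.

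Lpl had 5277, 11951, 7064 and 8564 normalised reads in young controls, 17218, 23622, 14418 and 17365 in young runners, 10757, 16485, 8261 and 16866 in old controls, and 22696, 20745, 14641 and 16682 in old runners. The young controls all lay below the young runners, and the old groups overlapped. Acsl1 had 9107, 15564, 11007 and 12732 normalised reads in young controls, 19947, 26357, 13962 and 20045 in young runners, 13054, 13980, 10383 and 16579 in old controls, and 18798, 19370, 17050 and 16451 in old runners. Old runners sat close together, and at each age 1 control (Yc5 and Oc4) exceeded the lowest runner. Lpl and Acsl1 were past the threshold under all 26 alternatives, with the adjusted p of Lpl between 0.000606 and 0.0262 and that of Acsl1 between 0.000647 and 0.0457. Lpl lies on chromosome 8 (68880491 to 68907448, mm10 with GENCODE M21) and Acsl1 on the same chromosome (46471037 to 46536051), where the predicted gene Gm45244 shares exon bases with it. The libraries keep no strand, so reads of overlapping genes cannot be separated.

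Cpt2 had 3077, 4118, 2395 and 2785 normalised reads in young controls, 5997, 5750, 4616 and 4782 in young runners, 3545, 4947, 4461 and 3286 in old controls, and 5443, 4309, 3697 and 4162 in old runners. Young runners all exceeded young controls, and the old groups overlapped. Hadha had 5262, 6846, 4098 and 5265 normalised reads in young controls, 9209, 9251, 7257 and 8262 in young runners, 6409, 9051, 6038 and 7536 in old controls, and 10236, 7807, 6334 and 8087 in old runners. Again the young groups were apart and the old groups overlapped. Cpt2 passed under 15 of 26 alternatives (adjusted p 0.00662 to 0.0749) and Hadha under 9 of 26 (0.0047 to 0.168). With the exon length trend removed Cpt2 differed by 0.48 (adjusted p = 0.0164) and Hadha by 0.30 (adjusted p = 0.168). Cpt2 lies on chromosome 4 (107903981 to 107923610) and Hadha on chromosome 5 (30118304 to 30155162), sharing exon bases with Garem2.

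**Figure D2:**
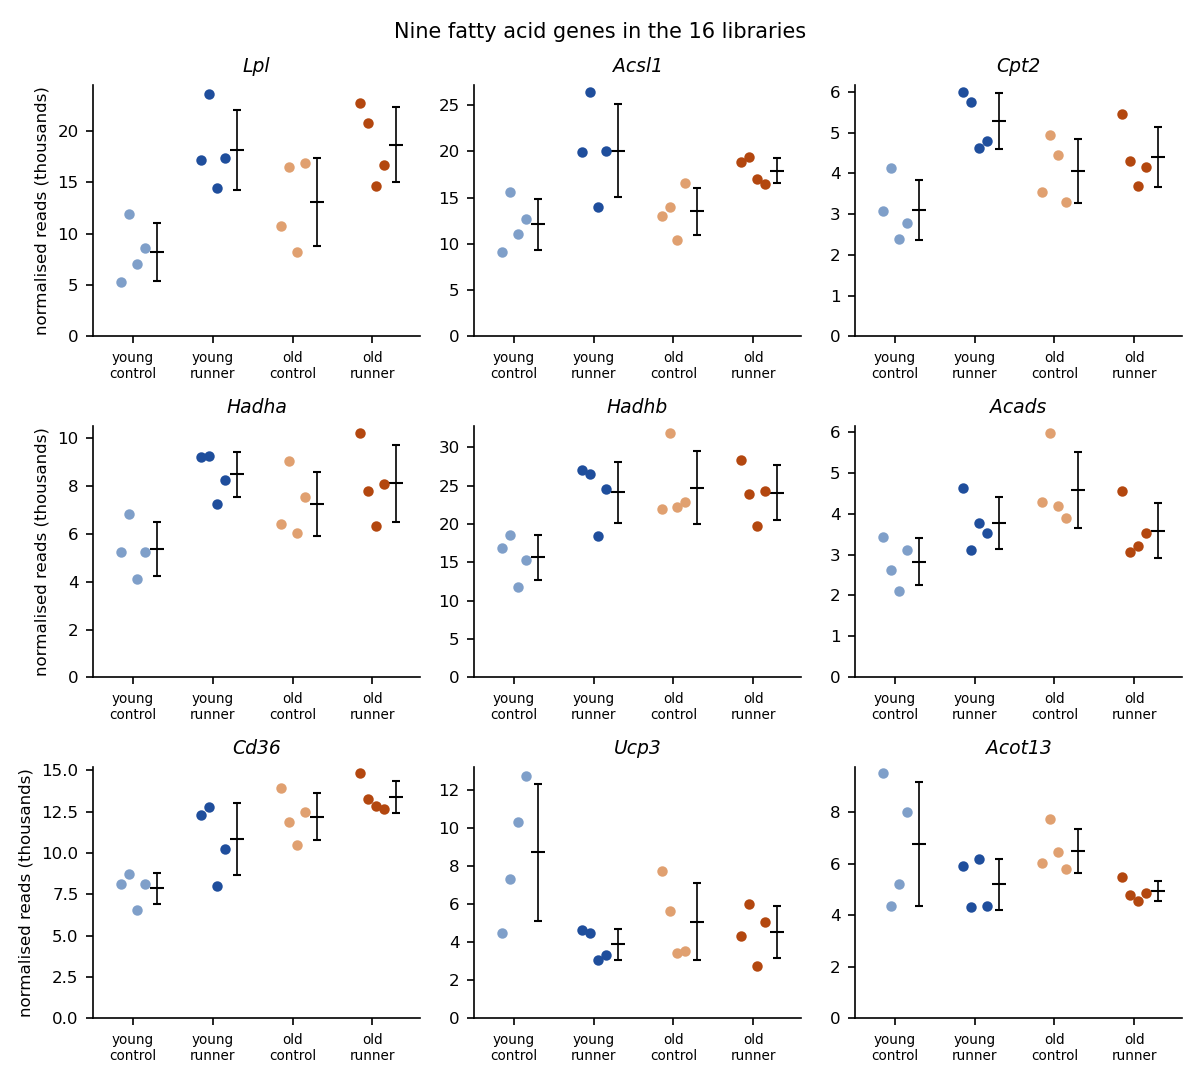
Normalised reads (axis in units of 1000) of 9 members in each of the 16 libraries, with 1 point per library and the group mean and SD beside the points (n = 4). For Lpl and Cpt2 all 4 young controls lie below all 4 young runners, while the old groups overlap.

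Lpl is made by adipocytes as well as muscle, and its product sits on endothelium, so markers of other cells were read in the same libraries. The 15 endothelial markers summed to 381 to 1293 normalised reads in young controls, 1818 to 7160 in young runners, 698 to 6536 in old controls and 1435 to 5525 in old runners. The 12 measured of 13 fibro-adipogenic progenitor markers summed to 1338 to 2599, 6853 to 15618, 916 to 4084 and 3557 to 6077 in the same order. Both sums were higher in young runners than in young controls without overlap, as Lpl was, and their part in the Lpl difference was not tested. Most of the progenitor sum of young controls was Smoc2 (1184 to 2194). Over both ages 3 of 4 tested progenitor markers and 1 of 9 tested endothelial markers were called higher with running. None was called lower, where 5.07% of all genes were called higher and 4.85% lower. A marker can pass the filter, set out below, through the runners alone. In bulk RNA, fewer cells of a type and less RNA per cell cannot be told apart. Of 9 adipocyte markers, 3 had values (Cidec, Cfd and Cidea), with a highest sum of 136 reads in any library. Cfd was at 0 in all libraries of young controls, old controls and old runners. Outside that list Fabp4, a fatty acid binding protein of adipocytes and endothelium, reached 1174 normalised reads in the old control Oc3. The part of adipocytes in the Lpl values was not tested.

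Myosin genes of the fibres themselves moved with running as well. Over both ages 2 of 11 fast glycolytic markers tested were called higher, where 5.07% of all genes were. These were the fast myosin genes Myh1 (1.43, adjusted p = 0.00493) and Myh4 (0.80, adjusted p = 0.0421). None was called lower, as 4.85% of all genes were, and 8 of the 11 were positive. Of 5 slow and oxidative markers tested, Myh2, the myosin of fast oxidative fibres, rose by 2.62 (adjusted p = 0.0267). Myh2 had 21.6 to 5339 normalised reads in young controls and 1679 to 21348 in young runners, which overlapped. In old mice it had 24 to 1906 in controls and 2292 to 18645 in runners. Its lowest controls thus had few reads, and its spread was wide. The tropomyosin gene Tpm3 fell by 0.82 (adjusted p = 0.0343), and 3 of the 5 were positive. Myh1 had 27417 to 101929 normalised reads in young controls, 122557 to 300543 in young runners, 36948 to 107342 in old controls and 161102 to 210951 in old runners, so that runners and controls did not overlap at either age. The sums of the whole fast list were 4323286 to 5328670, 4628064 to 6870569, 3454093 to 5893086 and 5244952 to 6458973 in the same order, and those of the slow and oxidative list 71362 to 103926, 83442 to 113624, 88081 to 128153 and 71064 to 165193. Both sums overlapped between runners and controls. The part of these myosin differences in those of the members was not tested.

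RefSeq promoter windows (250 bases before to 50 after a start, GRCm38.p6) were at hand for 33 of the 41 members, in 41 windows, and not for Lpl. They are shown for the other members that passed a test, to let the letters around their starts be read beside the values. Capitals mark the GC box GGGCGG and the nuclear receptor half-site AGGTCA on either strand. Each runs 5′ to 3′ on the strand of the gene. The first Acsl1 window (chr8:46470787-46471086, plus strand) holds 7 GC boxes, the Cpt2 window (chr4:107923540-107923839, minus strand) 3, the Hadha window (chr5:30154931-30155230, minus strand) 1 and the Cd36 window (chr5:17835847-17836146, minus strand) 2 with 1 half-site. Hadha and Hadhb are read away from each other from starts 273 bases apart, so that their windows share 228 bases.
Acsl1: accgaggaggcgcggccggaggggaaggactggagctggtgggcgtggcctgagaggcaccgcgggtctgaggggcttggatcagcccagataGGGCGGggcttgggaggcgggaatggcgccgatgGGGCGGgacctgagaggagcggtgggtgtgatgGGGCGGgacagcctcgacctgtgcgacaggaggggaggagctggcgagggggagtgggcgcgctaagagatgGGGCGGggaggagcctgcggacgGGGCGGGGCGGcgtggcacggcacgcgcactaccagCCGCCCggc
Cpt2: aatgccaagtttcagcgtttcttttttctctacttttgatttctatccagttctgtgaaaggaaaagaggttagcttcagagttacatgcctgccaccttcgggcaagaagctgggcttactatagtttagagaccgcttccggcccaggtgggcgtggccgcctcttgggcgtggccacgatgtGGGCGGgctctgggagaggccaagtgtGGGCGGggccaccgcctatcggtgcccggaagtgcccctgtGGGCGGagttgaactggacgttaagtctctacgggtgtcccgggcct
Hadha: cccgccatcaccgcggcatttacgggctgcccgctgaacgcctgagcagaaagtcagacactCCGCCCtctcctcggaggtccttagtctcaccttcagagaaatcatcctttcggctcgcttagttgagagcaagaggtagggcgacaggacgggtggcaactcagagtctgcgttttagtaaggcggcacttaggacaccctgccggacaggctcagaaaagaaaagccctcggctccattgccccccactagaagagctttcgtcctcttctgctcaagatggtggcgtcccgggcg
Cd36: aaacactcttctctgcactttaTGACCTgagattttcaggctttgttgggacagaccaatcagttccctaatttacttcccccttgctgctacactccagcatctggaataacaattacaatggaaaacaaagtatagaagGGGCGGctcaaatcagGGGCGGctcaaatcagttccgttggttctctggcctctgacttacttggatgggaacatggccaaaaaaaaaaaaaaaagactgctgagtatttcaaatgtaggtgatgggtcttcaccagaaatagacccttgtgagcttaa
A GC box occurred in 29 of the 41 member windows (70.7%) and in 35.7% of 32851 windows of the same length, and a half-site in 26.8% and 16.3%. The direct repeat AGGTCANAGGTCA, in which 1 base parts half-sites, was in 0 of the 41 and in 0.04% of all windows. These are matches of letters only.

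At 4 months the runners' differences were spread over uptake and beta-oxidation, but no member passed over all 10622 genes tested, of which 0.763% did. By voom on the recovered reads 0 members passed as well, here and in the other 3 pairs of groups. At an unadjusted p under 0.05 there were 13 of 40 tested members higher and 2 lower, where 8.84% and 8.51% of all genes were. In 9 members (Lpl, Cpt2, Acadvl, Hadha, Hadhb, Acaa2, Decr1, Pnpla2 and Plin5) every runner lay above every control on the deposited scale, as in 5.71% of all genes, and in 0 every runner lay below, as in 5.77%. With 1 set of size factors over all 16 libraries, as in the normalised reads printed here, Hadhb and Pnpla2 overlapped slightly and 7 remained. The median over the 41 was 0.26, against 0.01 for all genes tested, and 32 were positive (78.0%), against 51.5% of all genes tested. The lowest adjusted p were those of Lpl (1.16, 95% interval 0.62 to 1.69, adjusted p = 0.06), Cpt2 (0.75, 0.35 to 1.15, adjusted p = 0.0778) and Hadha (0.65, 0.28 to 1.03, adjusted p = 0.0955). With the exon length trend removed Lpl passed (1.11, adjusted p = 0.0225). The count of 13 fell to 7 without the control Yc7 and to 8 without the runner Y1ex or Y2ex, and the single library Yc4 left out gave 14. The 2 lower were Ucp3 and Cpt1a, of which Cpt1a passed the filter through 3 controls and 1 runner. Their count became 1 without Y2ex or Yc5.

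Of 12 beta-oxidation genes 10 were positive in young mice, with a median of 0.39. Hadhb, which carries the thiolase activity of the trifunctional protein, had 16823, 18612, 11757 and 15319 normalised reads in young controls and 26973, 26502, 18430 and 24557 in young runners (0.62, adjusted p = 0.13). Acadvl, the very long-chain acyl-CoA dehydrogenase bound to the inner membrane, had 13387, 13764, 9683 and 12533 normalised reads in young controls and 21221, 16708, 14070 and 17284 in young runners (0.48, adjusted p = 0.196). The lowest runner, Y3ex, lay just above the highest control for Acadvl and just below it for Hadhb. The enzymes for shorter chains Acadl (0.38), Acadm (0.43) and Acads (0.39) had adjusted p of 0.27 to 0.304. Echs1 (-0.17), a hydratase, and Eci2 (-0.25), an isomerase for unsaturated fatty acids, were the negative ones, and Hadh and Eci1 stood at 0.02 and 0.01. Decr1, the reductase for polyunsaturated chains, differed by 0.35 (adjusted p = 0.237).

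Away from beta-oxidation, Pnpla2 (0.43, adjusted p = 0.209) and Plin5 (0.56, adjusted p = 0.219), which ties droplets to mitochondria, were among the larger differences. Pnpla2 had 10564, 12676, 10721 and 11082 normalised reads in young controls and 12655, 17029, 18615 and 13583 in young runners, with the lowest runner level with the highest control. Plin5 had 1767, 1529, 1356 and 1299 normalised reads in young controls and 1867, 3566, 2139 and 1867 in young runners, where 1 runner, Y2ex, stood well above the other 3. Cd36, a fatty acid transporter at the plasma membrane, differed by 0.43 (adjusted p = 0.236) and Fabp3 by -0.28 (adjusted p = 0.438). Fabp3 had 19733, 14800, 12973 and 20778 normalised reads in young controls and 15331, 14187, 13099 and 12897 in young runners, and its groups overlapped.

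The members that differed most in the other direction in young mice were Ucp3, Plin4 and Cpt1a. Cpt1a passed the filter through 3 controls and 1 runner, mostly the group where it was high, and is described further on. Ucp3, a mitochondrial carrier of the uncoupling protein family that is induced when fatty acids are plentiful, had 4472, 7336, 10309 and 12732 normalised reads in young controls and 4621, 4506, 3072 and 3316 in young runners (-1.05, 95% interval -1.70 to -0.41, adjusted p = 0.112). Only Yc4 of the controls lay within the range of the runners, and without it Ucp3 passed (-1.33, adjusted p = 0.0214), the 1 member to do so with any library left out in young mice. Plin4, a droplet coat protein, had 1072, 4120, 4345 and 2675 normalised reads in young controls and 1750, 1907, 820 and 2390 in young runners (-0.69, adjusted p = 0.413). Yc4 was again the low control, and without it the difference was -1.09 (adjusted p = 0.0952). Yc4 is also the young control whose values fell most with exon length. With that trend removed Ucp3 differed by -1.06 (adjusted p = 0.089) and Plin4 by -0.75 (adjusted p = 0.27). The part of the trend in the low Yc4 values was not tested.

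At 22 months the picture was mixed, and no member passed over all 9377 genes tested, of which 0.128% did. At an unadjusted p under 0.05 there were 3 members higher (Acsl1, Lpl and Acacb) and 3 lower (Acot13, Slc25a20 and Eci1) of 39 tested, where 10.3% and 7.04% of all genes were. With 1 library left out there were 0 to 3 higher (0 without Oc3, 1 without O2ex or O4ex) and 1 to 6 lower (1 without O2ex, O3ex, O4ex, Oc2 or Oc4, 5 without O1ex and 6 without Oc1). With the exon length trend removed 0 were higher and 2 lower, and Acsl1 differed by 0.26 (adjusted p = 0.447) against 0.42 (adjusted p = 0.199) with it. In 0 members every runner lay above every control (4.86% of all genes), and in 2, Eci2 and Acot13, every runner lay below (5.29%). The median over the 41 was -0.0033, against 0.03, and 20 were positive (48.8%), against 54.8% of all genes tested. Differences in old mice rose with exon length across 9216 genes (Spearman's rho 0.338) and across the 39 members tested (0.44), and its part in each member's difference was not tested beyond the fit without the trend.

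Acacb, which makes the malonyl-CoA that blocks the carnitine shuttle, had 1056, 7464, 6536 and 5284 normalised reads in young controls, 8049, 10666, 5707 and 9112 in young runners, 6922, 2783, 2413 and 4782 in old controls, and 3692, 7254, 9867 and 8851 in old runners (old 0.79, adjusted p = 0.265; young 0.95, adjusted p = 0.35). It was lowest in Yc4, Oc3 and Oc2, whose values fall with exon length. Mlycd, which breaks malonyl-CoA down, had 12712, 8356, 8858 and 9507 normalised reads in young controls, 9674, 9206, 10380 and 8781 in young runners, 10830, 10944, 9570 and 12647 in old controls, and 10461, 9648, 8301 and 9862 in old runners (old -0.18, adjusted p = 0.485). It had the lowest coefficient of variation of the 41 over all libraries (13.2%), and its groups overlapped. Over both ages Acacb differed by 0.87 (adjusted p = 0.0998).

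Acot13, a thioesterase that frees fatty acids from coenzyme A, had 9499, 4361, 5194 and 8006 normalised reads in young controls, 5895, 4333, 6181 and 4363 in young runners, 6015, 7711, 6458 and 5787 in old controls, and 5498, 4795, 4560 and 4870 in old runners (old -0.36, adjusted p = 0.199). All old runners were below all old controls. With the exon length trend removed the difference in old mice was -0.21 (adjusted p = 0.356). Slc25a20, the carnitine and acylcarnitine carrier of the inner membrane, had 10050, 11610, 9562 and 10818 normalised reads in old controls and 9841, 8548, 7343 and 7613 in old runners (-0.32, adjusted p = 0.237). Eci1, an isomerase of unsaturated fatty acid oxidation, had 7786, 11076, 8501 and 9243 normalised reads in old controls and 8046, 7200, 6382 and 7164 in old runners (-0.32, adjusted p = 0.265). In each of these 2 the runner O1ex lay among the controls. Fabp3 in old mice had 11039, 18675, 16052 and 19186 normalised reads in old controls and 16217, 11905, 9183 and 8940 in old runners (-0.48, adjusted p = 0.298), with 1 control, Oc1, and the runner O1ex against the direction.

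**Figure D3:**
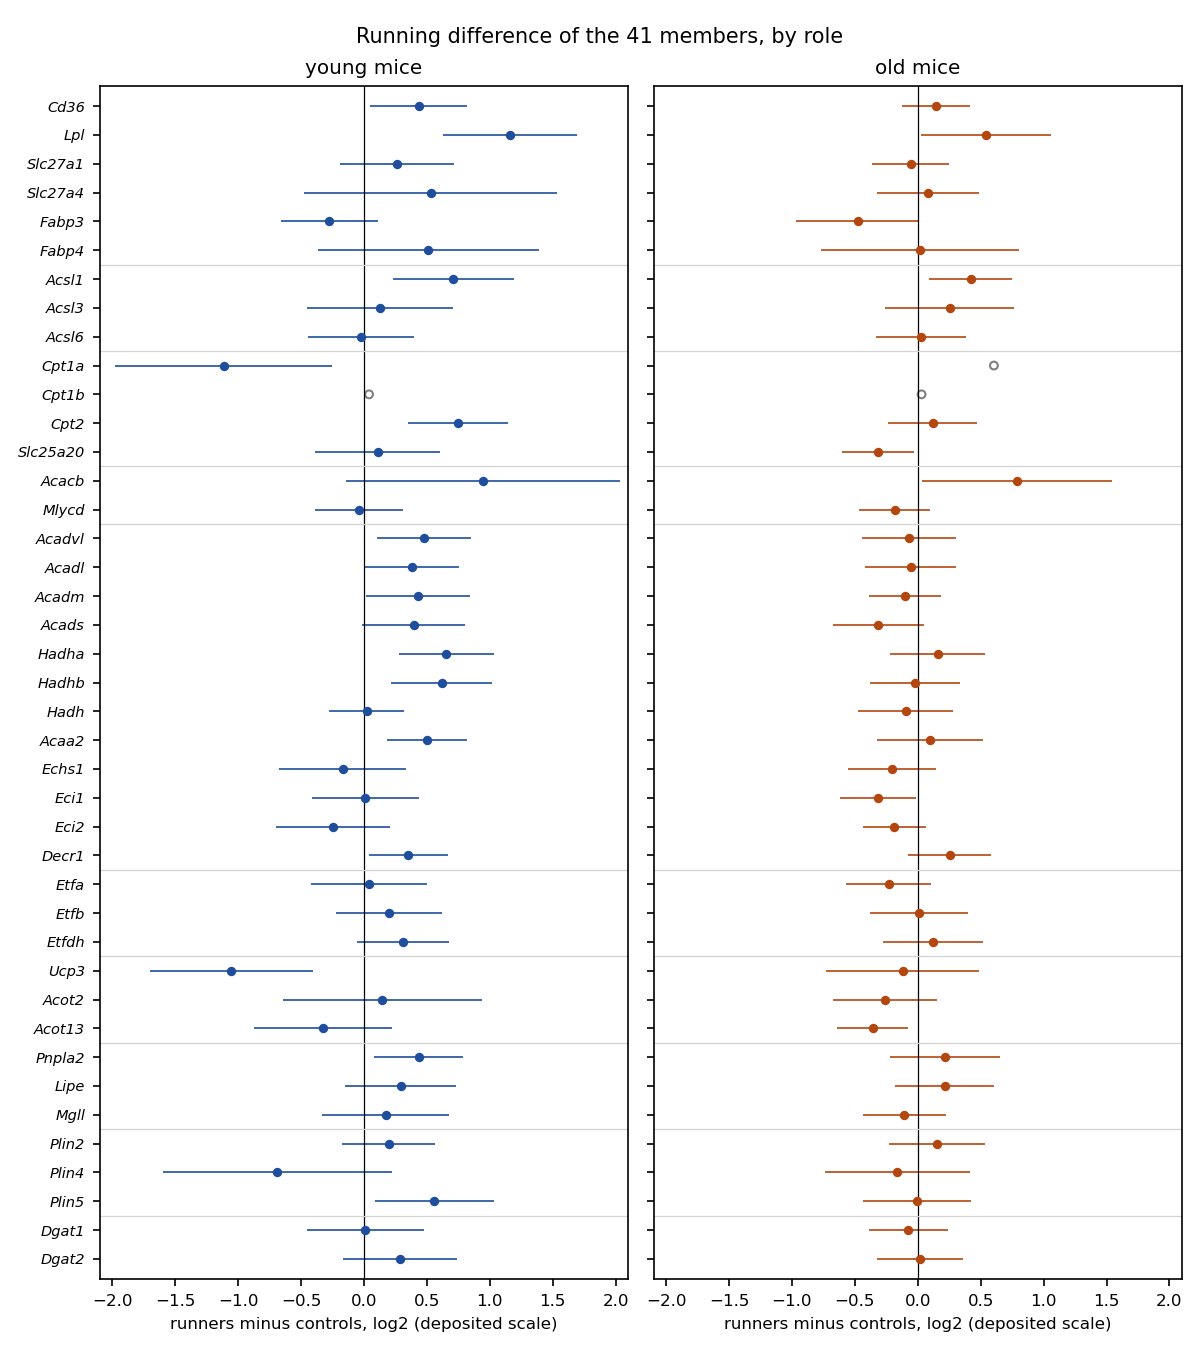
Difference of runners minus controls (log2, deposited scale) with its 95% interval for each member in young mice (left) and old mice (right), grouped by role between grey lines. Open circles mark members below the filter. In young mice 32 of 41 are right of 0, and in old mice 20 of 41.

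Whether running differed with age was tested by the difference of the running effects (old minus young). No gene passed over 9354 tested (0.0%), with 585 at an unadjusted p under 0.05, and the lowest adjusted p of a member was 0.711. By voom on recovered reads 0 genes passed. Of 39 members tested 5 were lower at an unadjusted p under 0.05 and 1 higher, where 2.85% and 3.4% of all genes were. The 5 were Acads (-0.71, 95% interval -1.23 to -0.18), Hadhb (-0.64, -1.16 to -0.13), Cpt2 (-0.63, -1.14 to -0.12), Acadvl (-0.54, -1.05 to -0.04) and Acadm (-0.53, -1.01 to -0.05), and the 1 was Ucp3 (0.93, 0.02 to 1.85). All but Cpt2 of the 5 are beta-oxidation enzymes, and 11 of the 12 beta-oxidation genes were negative in this difference, with a median of -0.42. Over the 41 members the median was -0.27, against 0.03 over all genes, and 6 were positive (14.6%), against 53.4% of all genes tested. The count of 5 ran from 3 to 9 with 1 library left out, 3 without O3ex, Oc2, Y1ex or Yc7 and 9 without Yc4, and the count of 1 from 0 to 2, 2 without Yc4. A difference in the effect of running between ages was thus not called for any member. The intervals of Acads, Hadhb, Cpt2, Acadvl and Acadm reach below -1, and those of members not listed here can reach as far.

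**Figure D4:**
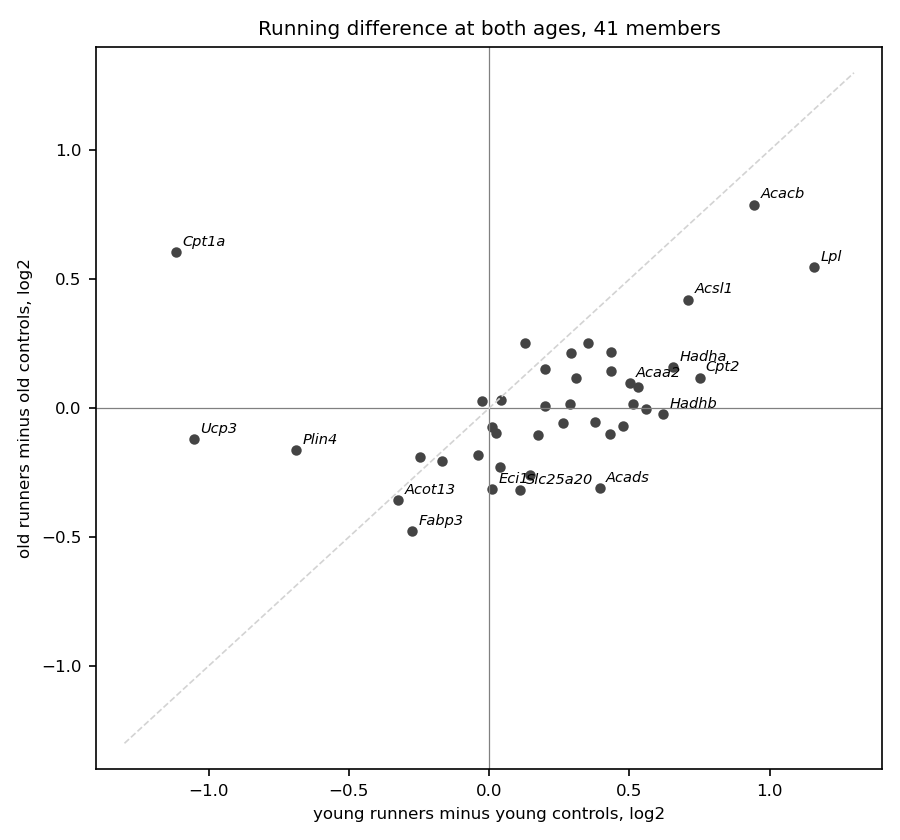
Difference of runners minus controls in young mice (x axis) and in old mice (y axis) for the 41 members, both as log2 on the deposited scale, with the line of equal differences dashed. Lpl, Acsl1 and Acacb lie high on both axes, and Hadhb and Acads are positive in young mice and below 0 in old mice.

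Age was compared next, in controls and in runners apart. The comparison in controls uses the same 4 young control libraries as that of running in young mice, so a low or high value of those libraries enters both, and the values are set side by side here without a measure of their likeness. In controls no member passed over 9829 genes tested, of which 0.112% did. At an unadjusted p under 0.05 there were 13 of 39 members higher in old mice and 0 lower, where 5.43% and 5.75% of all genes were. In 7 members (Cd36, Acadvl, Acadl, Acadm, Acads, Hadhb and Acaa2) every old control lay above every young control on the deposited scale (4.16% of all genes), and in 0 below (2.84%). In the normalised reads Acadm overlapped and 6 remained. All 12 beta-oxidation genes were positive, with a median of 0.44, and the median over the 41 was 0.28, against -0.01 for all genes. Of the 41, 34 were positive (82.9%), against 49.3% of all genes tested. The 13 became 5 without Yc7, 7 without Oc2, 8 without Yc8 and 12 without Yc4 and Oc2 together, and the 0 lower became 2 without Yc4 and 1 without Oc1.

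Hadhb had 16823, 18612, 11757 and 15319 normalised reads in young controls and 21937, 31832, 22204 and 22916 in old controls (0.68, 95% interval 0.27 to 1.08, adjusted p = 0.228). The old control Oc2 stood far above the other 3, which were still above every young control. Acads, the short-chain dehydrogenase, had 3438, 2625, 2120 and 3104 normalised reads in young controls, 4621, 3114, 3776 and 3537 in young runners, 4287, 5960, 4180 and 3899 in old controls, and 4555, 3059, 3210 and 3517 in old runners (0.67, adjusted p = 0.229). Its highest group was the old controls and its lowest the young controls. Acadm, the medium-chain dehydrogenase, had 20008, 15175, 10705 and 15286 normalised reads in young controls, 22481, 20607, 17629 and 20601 in young runners, 19847, 28160, 23676 and 23238 in old controls, and 22270, 21342, 20757 and 22991 in old runners (0.67, adjusted p = 0.241). Each old control except Oc1 exceeded every young library, runners included. In young mice, the running difference of these 3 was 0.62, 0.39 and 0.43.

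Acadl had 16801, 14858, 10953 and 13156 normalised reads in young controls and 18141, 27562, 16832 and 18806 in old controls (0.55, adjusted p = 0.316), and its groups did not overlap, although Oc3 and Yc4 were close. Of the 7 members that were negative in old controls, the 3 with the smallest p were Ucp3 (-0.69, adjusted p = 0.465), Plin4 (-0.32, adjusted p = 0.789) and Lipe (-0.05, adjusted p = 0.937), all with overlap. Without Yc4, Plin4 differed by -0.70 (adjusted p = 0.232) and Lipe by -0.10 (adjusted p = 0.813), and with the exon length trend removed Lipe by -0.03 (adjusted p = 0.961). Ucp3 in old controls had 7748, 5615, 3433 and 3551 reads. Lipe had 228, 322, 279 and 282 normalised reads in young controls, 509, 424, 289 and 312 in young runners, 292, 210, 221 and 304 in old controls, and 414, 508, 249 and 234 in old runners, with no group apart from another.

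In runners no age difference of a member was called. None passed over 9385 genes tested, of which 0.0213% did, and 0 of 39 had an unadjusted p under 0.05 in either direction, where 2.41% of all genes were higher and 2.5% lower. With 1 library left out these counts reached 1 higher (without Y1ex or Y2ex) and 2 lower (without O1ex). The median was 0.04, and the differences ran from -0.28 (Fabp3) to 0.47 (Cpt1a, which was too low to be tested). The 3 tested members with the smallest p in each direction were Cd36 (0.32, adjusted p = 0.982), Acadm (0.11) and Echs1 (0.11) among the positive, and Cpt2 (-0.24), Fabp3 (-0.28) and Acacb (-0.21) among the negative, the last 5 with adjusted p of 0.987 or more. Echs1 had 13389, 6043, 6501 and 8430 normalised reads in young controls, 7559, 7095, 7608 and 6810 in young runners, 7741, 9669, 7648 and 12104 in old controls, and 8604, 8340, 7363 and 7109 in old runners. Its high values were those of Yc4 and Oc4, and the runners of both ages lay close together.

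Cd36 rose with age when controls and runners were averaged (0.48, SE 0.10, 95% interval 0.26 to 0.70, adjusted p = 0.0423 by limma over 9201 genes). It was the only one of 39 members called, where 0.478% of all genes were called higher. Cd36 had 8124, 8714, 6525 and 8093 normalised reads in young controls, 12305, 12797, 7991 and 10262 in young runners, 13915, 11885, 10466 and 12455 in old controls, and 14813, 13266, 12845 and 12658 in old runners. Every old control lay above every young control, whereas among runners Y1ex and Y2ex reached the level of old mice. The call was lost in 17 of 26 alternatives (adjusted p up to 0.111), among them voom on the recovered reads (adjusted p = 0.0596) and the loss of any of 13 single libraries, all but Oc3, Yc4 and Y2ex. Its difference stayed between 0.41 and 0.52. Cd36 is also made by endothelial cells, whose marker sum was 381 to 1293 (mean 842) in young controls and 698 to 6536 (mean 2688) in old controls. In runners that sum was 1818 to 7160 (mean 3676) in young mice and 1435 to 5525 (mean 2971) in old mice. There the mean sum was lower in old mice, while Cd36 differed by 0.32 with age. The part of endothelial cells in the Cd36 difference was not tested. Cd36 lies on chromosome 5 (17781690 to 17888801) with no overlapping gene.

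Seen over the 4 groups, young controls had the lowest mean in 27 of the 41 members (65.9%), against 30.6% of the 9106 genes tested in all 4 pairs of groups, and old controls had the highest in 17 (41.5%, against 23.1%). For 1 member, Acadvl, all 4 young controls lay below the other 12 libraries, as for 0.977% of genes, and for 0 members they lay above, as for 0.966%. Acadvl had 13387, 13764, 9683 and 12533 normalised reads in young controls, 21221, 16708, 14070 and 17284 in young runners, 15979, 23011, 13932 and 19609 in old controls, and 19524, 17572, 15004 and 15738 in old runners. The highest young control, Yc5, and the lowest of the rest, Oc3, were close. Summed over the 12 genes of beta-oxidation, normalised reads were 103744 ± 17176 in young controls, 133614 ± 11988 in young runners, 144746 ± 25305 in old controls and 136649 ± 15555 in old runners (SD, n = 4). The old control mean rests in part on Oc2 with 180838. By contrast the role of uncoupling and thioesterases, carried by Ucp3 and Acot13, was highest in young controls with 15621 ± 3828, against 9227 ± 1111, 11858 ± 2241 and 9653 ± 1540.

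**Figure D5:**
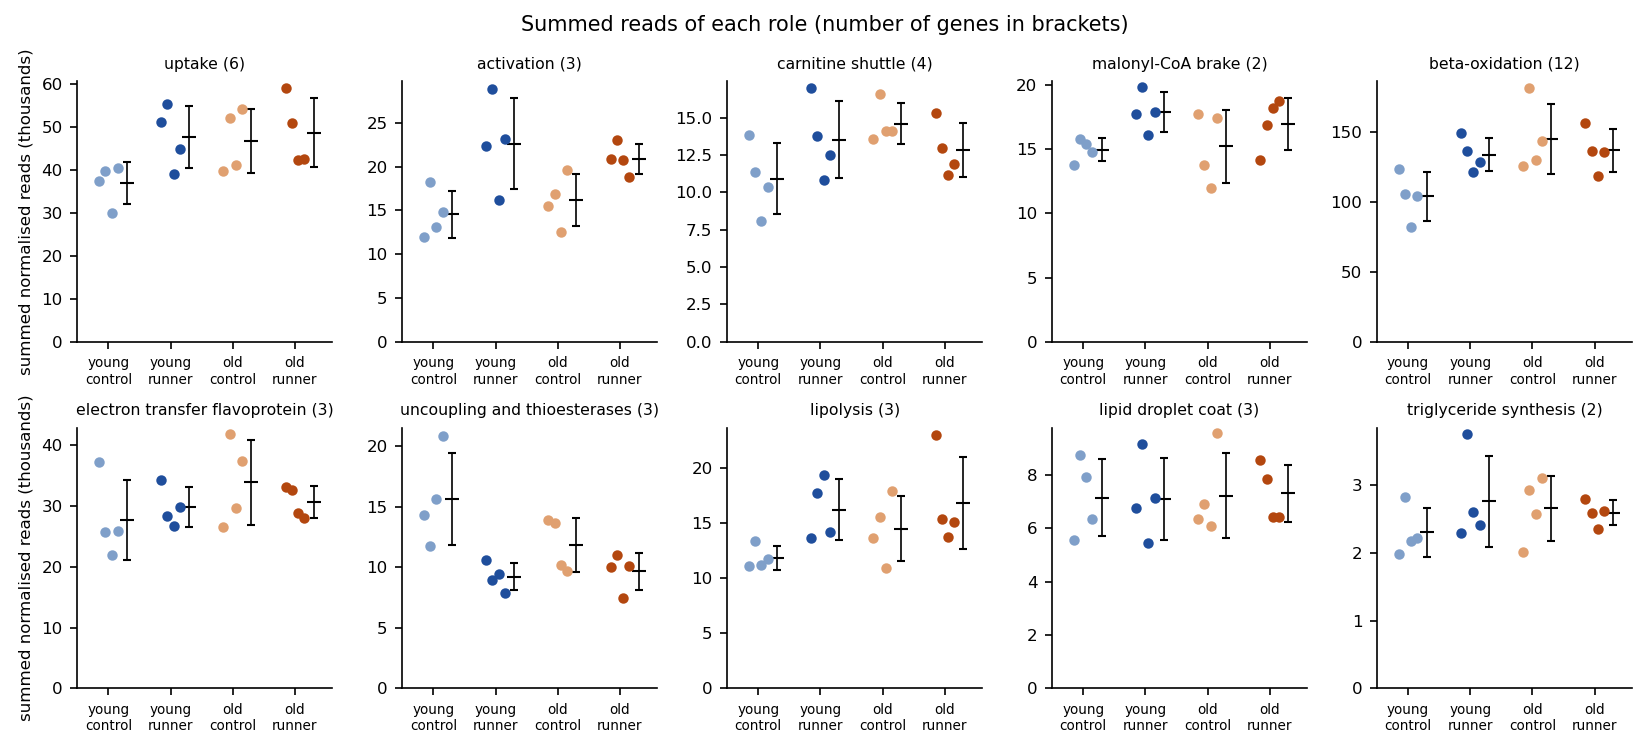
Normalised reads (axis in units of 1000) summed over the genes of each role in each library, with group mean and SD beside the points (n = 4). The beta-oxidation sum of young controls (103744) is the lowest of the 4 group means, and that of uncoupling and thioesterases (15621) the highest.

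The activation sum was 14547 ± 2701 in young controls, 22618 ± 5207 in young runners, 16143 ± 2957 in old controls and 20883 ± 1697 in old runners, and Acsl1 made up most of it. Acsl3 and Acsl6, the other synthetases, differed with running by 0.19 (adjusted p = 0.525) and 0.00 (adjusted p = 0.994) over both ages. Lipid droplet coat sums were 7144 ± 1439, 7104 ± 1534, 7224 ± 1587 and 7309 ± 1065 in the same order, so group means differed by less than their spread. Within that role Plin5 and Plin4 differed in sign in young mice (0.56 and -0.69). For triglyceride synthesis, Dgat2 had 1471, 1964, 1412 and 1584 normalised reads in young controls, 1690, 3033, 1638 and 1863 in young runners, 1467, 2158, 1744 and 2415 in old controls, and 2209, 1951, 1741 and 1856 in old runners, with Y2ex above the rest, and Dgat1 differed by -0.03 with running over both ages. In the electron transfer flavoprotein, Etfa had 28495, 16762, 13859 and 17707 normalised reads in young controls, 21467, 17512, 18259 and 19305 in young runners, 18217, 28687, 21684 and 25274 in old controls, and 20615, 20964, 19367 and 17520 in old runners. High values were those of Yc4, Oc2 and Oc4, and the 3 genes of the role had adjusted p of 0.266 or more for running over both ages.

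Members near the floor of the tables need more care. Cpt1b, the muscle isoform of the gate enzyme that makes carnitine esters, had 22.6, 21.2, 18.9 and 18.5 normalised reads in young controls, 17.8, 34, 19.1 and 22.9 in young runners, 7.75, 32.6, 18 and 24.1 in old controls, and 21.8, 20.9, 25.8 and 20.4 in old runners. It failed the filter (at least 1 above the floor of a table, in at least 4 libraries) in all 4 tables. Of its 3372 exon bases, 2744 (81.4%) are shared with the annotated gene Gm44502, which has no value used here, so the low count cannot be read as a low level of Cpt1b RNA. Cpt1a, the liver isoform, had 168, 261, 252 and 14.4 normalised reads in young controls, 0, 68.9, 1.12 and 24.9 in young runners, 0, 0.881, 64.7 and 0 in old controls, and 33.5, 84.8, 81.4 and 95 in old runners, and it was tested only between young groups (-1.12, adjusted p = 0.191, or -3.98 with adjusted p = 0.563 by voom on the recovered reads), where 3 of 4 controls were high. Cpt1a passed the filter there with 3 controls and 1 runner above that height. Slc27a4, Fabp4 and Acot2 also had fewer than 4 libraries above that height in some group. Fabp4, a fatty acid binding protein of adipocytes and endothelium, reached 1174 reads in Oc3, 861 in Y1ex and 803 in O3ex, and 69.4 to 329 in the other 13.

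Other genes of fatty acid handling were read from 7 further lists. Averaged over both ages, running gave calls in 5 of them, where 5.07% of all genes were called higher and 4.85% lower. In fatty acid and glycerolipid synthesis 4 of 16 tested rose and 1 fell: the desaturase gene Scd2 (0.97, adjusted p = 0.00419), the fatty acid synthase gene Fasn (1.01, adjusted p = 0.0152), Agpat3 (0.46) and Me1, which supplies NADPH (0.39), rose, and the carbohydrate-responsive factor gene Mlxipl fell by 0.56. The list of carnitine supply and acetyl group handling also holds further acyl-CoA dehydrogenase genes. In it 3 of 16 rose (Acad9, 0.42; Acad12, 0.44; Acadsb, 0.34), all of that dehydrogenase family. The 2 that fell were Aldh9a1, an enzyme of carnitine synthesis, by 1.33 (adjusted p = 0.00834) and Acad10, of the dehydrogenase family, by 0.59. Of the genes called in this list only Aldh9a1 thus belongs to carnitine supply. Among lipid droplet and lipase partners the lipase inhibitor gene G0s2 fell by 0.90 (adjusted p = 0.0108) and Hilpda, another inhibitor of that lipase, by 0.50, while Fitm2, which helps droplets form, rose by 0.57, of 11 tested. Prkaa1, the alpha1 catalytic subunit of AMPK, rose by 0.91 (adjusted p = 0.0103), the only one of 11 AMPK subunits and partners called. Of 23 peroxisomal genes Pex5 rose by 0.38 (adjusted p = 0.0381).

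None of 14 tested PPAR and PGC-1 regulators and none of 7 tested PPAR targets outside the members passed for running over both ages, where 4 and 3 were higher and 1 and 1 lower at an unadjusted p under 0.05, as 16.2% and 12.5% of all genes were. The smallest p were those of Cited2 (0.64, adjusted p = 0.0753) and Rxra (0.55, adjusted p = 0.0862) among regulators, and of Acaa1a (-0.27, adjusted p = 0.0949) among targets. In the 4 comparisons of a pair of groups, Aldh9a1 in young mice (-1.73, adjusted p = 0.0474) was the single gene of the 7 lists past the threshold. With age over controls and runners, Acad9, a mitochondrial acyl-CoA dehydrogenase, rose by 0.43 (adjusted p = 0.0487) and Scd2 fell by 0.76 (adjusted p = 0.0444), where 0.478% of all genes were called higher and 0.25% lower.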

How the data were processed

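RNA of 16 libraries was measured by bulk RNA-seq (SMART-Seq v4 chemistry and an ultralow-input kit, per the labels' protocols), which keeps no strand. The authors used Trim Galore, STAR, featureCounts of Subread, DESeq2 and mm10, per the submitters' processing notes. Neither versions nor the annotation are given in the sources used here. What the authors deposited are log2 values from the variance-stabilising transformation of DESeq2, 1 table for each of 4 pairs of groups, a scale that shrinks differences of low genes. Undoing the transformation returned whole reads, to within 0.02, in 100% of cases. The reads were divided by median-of-ratios size factors over all 16 libraries for the normalised reads printed. Libraries held 30.7 to 67.4 M reads (M, 1e6). Without molecular identifiers, reads may be PCR copies of 1 molecule.

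For each pair of groups its table was fitted by limma 3.58.1 (R 4.3.3; lmFit, eBayes with trend, 2-sided), and Python 3.11.15 read the tables. Genes had to lie at least 1 above the floor of the table in at least 4 libraries, and adjustment was by the method of Benjamini and Hochberg across every gene tested (threshold 0.05). Joint fits over the 16 libraries had a term for the table. The procedure was tested on simulated data. Alternatives were no filter, a filter of 2, library weights, median centring, quantile normalisation, eBayes robust or without trend, voom on the recovered reads, removal of a lowess exon length trend (span 0.3), a replicate block and each library left out. The removal of Yc4 and Oc2 together was chosen after seeing the data. Members and lists were chosen with earlier results of these data known. Named members are those past the threshold, up to 3 per direction with the smallest p in a pair of groups, and the most abundant per exon length of each role. Other members, and other fatty acid genes past the threshold or with the 2 smallest p of a list, are given more briefly. A gene outside the members that this rule names is not reported here.

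Runner columns were matched to samples by title, except O4ex and Y4ex, which like the control columns were matched to their group only. Of 23220 symbols 22254 (95.8%) matched GENCODE M21, all 41 members among them, and 14 members share exon bases with another gene.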

Additional observations from a re-analysis of the deposited data

Results flagged for a closer look

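Of 164 sets of 4 libraries (41 members in 4 groups), 8 had a library whose gap to its nearest neighbour exceeded Dixon's 95% critical value as a share of the range of the set. Chance gives about 1 in 20 such sets. In old controls Oc3 stood apart in Fabp4 with 1174 normalised reads (the other 3 at 182 to 268) and in Cpt1a with 64.7 (0 to 0.881). Oc2 stood apart in Hadhb with 31832 (21937 to 22916) and in Acaa2 with 17381 (10729 to 11315). Among young runners Y3ex had 3029 reads of Eci2 (2047 to 2096), and Y2ex had 3566 of Plin5 (1867 to 2139) and 3033 of Dgat2 (1638 to 1863). In old runners O1ex had 22089 reads of Pnpla2 (13013 to 14504).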

How the results depend on the processing

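With 4 libraries per group, calls depended on the settings. The number of members past the threshold for running over both ages (4) was 2 without a filter, after median centring and after quantile normalisation, 13 with library weights, and 2 to 5 with 1 library left out. For age over controls and runners (1) it was 0 without a filter, without the trend in eBayes, by voom and without Yc4 and Oc2 together, 6 with library weights, and 0 to 2 with 1 library left out. For running in young mice (0) it was 1 after median centring, quantile normalisation or removal of the length trend, 11 with library weights, and 0 to 1 with 1 library left out. With library weights it was 1 for running in old mice and 8 for age in controls (both 0). It stayed at 0 under all alternatives for age in runners and for the difference of the running effects. The median difference of the 41 members moved by less than the SD of that median between single libraries under every alternative. Leaving 1 library out shifts a group mean by only part of that library's deviation, so this wide yardstick says little about stability. With 1 library left out the median ran from -0.076 to 0.054 for running in old mice. In young mice it ran from 0.19 to 0.34. In controls Lipe changed sign with quantile normalisation (0.00613), and in runners the age difference of Acacb ran from -0.37 to 0.07 over all alternatives, positive without O1ex (0.0725). Over all genes, calls ranged from 0 to 688 for running in old mice (12), 0 to 1394 in young mice (81), 3 to 461 for age in controls (11), 0 to 7 in runners (2), 368 to 2543 for running over both ages (928), 0 to 27 for the difference of effects (0) and 31 to 659 for age over both (67). A replicate block, set by the numbers in the column names, could be fitted for running in old mice and for age in runners. No label pairs these libraries, and the sample titles number old controls from 5 to 8, so by title they share no number with old runners. The block gave 0 calls over all genes and among members, which count in the ranges above. Same-numbered libraries did not deviate together (correlations -0.143, -0.126, 0.119 and -0.114, and -0.240, 0.0924, -0.398 and -0.044). Columns of the other pairs share too few numbers. Cpt1a, Cpt1b, Fabp4, Slc27a4 and Acot2 had few reads in at least 1 group, so their values have a larger counting error.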
